A study of Mus musculus with 24 samples.

Results

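The mouse annotation holds a small set of gene models drawn over the major satellite, the tandem repeat that lies beside the centromeres. They were followed here through 24 hippocampus libraries of aged mice. The set was the 10 models Gm10800, Gm10801, Gm10717, Gm10715, Gm10718, Gm10719, Gm10720, Gm10721, Gm10722 and Gm11168, taken by symbol out of 49568 symbols in the count tables. They were selected on measured values, because earlier results of these same libraries had shown them to vary widely, so their group levels and correlations are a description and carry no test. The mice were 21 to 23 months old, and each library came from the hippocampus of 1 mouse. Wild-type mice (WT) and MSK1 kinase-dead mice (MSK1 KD), which carry a point mutation in Rps6ka5 that removes the activity of the kinase MSK1, were kept in standard housing (SH) or were moved at 18 months to enriched housing (EE) with a running wheel, tubes and toys. This gave 4 groups of 6 libraries, WTSH, WTEE, KDSH and KDEE. The KD and WT mice were bred as separate homozygous lines, so the mutation and other differences between the lines cannot be told apart. The study set 3 libraries aside, WTSH 4, WTSH 7 and KDSH 6, and 21 libraries (4, 6, 5 and 6 per group) entered the comparisons, while the levels of all 24 are given here.

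Major satellite DNA is packed into constitutive heterochromatin, where histone methylation, heterochromatin protein 1 and DNA methylation keep transcription low. RNA can nevertheless be copied from both strands of the repeat, and its level is known to change with heterochromatin state, the cell cycle and stress. Such transcripts are AT-rich and highly alike from one copy to the next, so a short read seldom belongs to a single place.

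The repeat is visible in the transcript sequences themselves. One unit is shown for the 3 models with the most counts and for Gm10717, the next in order, to let the copies be compared by eye. Each is on the strand of its gene model, on the GRCm38 build, read from the GENCODE transcripts, and capitals mark the bases that differ from the Gm10800 unit.
Gm10800, chr2:98666807-98667040, minus strand: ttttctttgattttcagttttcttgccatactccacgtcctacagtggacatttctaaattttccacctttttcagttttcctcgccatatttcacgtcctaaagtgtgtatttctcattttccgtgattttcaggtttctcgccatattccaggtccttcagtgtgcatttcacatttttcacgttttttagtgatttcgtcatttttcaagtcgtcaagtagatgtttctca
Gm10801, chr2:98662315-98662500, plus strand: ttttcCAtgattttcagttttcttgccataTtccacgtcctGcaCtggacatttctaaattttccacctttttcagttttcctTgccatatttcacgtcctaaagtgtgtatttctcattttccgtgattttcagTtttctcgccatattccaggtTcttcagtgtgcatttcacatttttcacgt
Gm10722, chr9:3001136-3001369, plus strand: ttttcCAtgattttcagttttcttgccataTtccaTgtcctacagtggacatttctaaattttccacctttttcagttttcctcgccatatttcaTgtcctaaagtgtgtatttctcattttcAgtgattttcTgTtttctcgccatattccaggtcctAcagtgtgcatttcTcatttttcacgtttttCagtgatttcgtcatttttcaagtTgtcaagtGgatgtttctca
Gm10717, chr9:3025660-3025893, plus strand: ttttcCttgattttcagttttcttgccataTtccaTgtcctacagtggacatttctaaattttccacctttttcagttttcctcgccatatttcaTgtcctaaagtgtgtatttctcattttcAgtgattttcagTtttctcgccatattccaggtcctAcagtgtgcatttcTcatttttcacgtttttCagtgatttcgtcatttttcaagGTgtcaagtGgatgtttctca

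The Gm10801 unit was a shorter stretch of 186 bases with 8 differences from the Gm10800 unit (95.7% identity). The Gm10722 unit differed at 13 of 234 bases (94.4%) and the Gm10717 unit at 12 of 234 (94.9%). Gm10722 and Gm10717, both from chromosome 9, were closer to each other, with 3 differences (98.7%). Several of the capitals stand at the same place in the chromosome 9 units, which therefore share bases that the Gm10800 unit lacks.

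All transcripts of the set held 34.2% to 36.0% G and C and 45.8% to 48.6% T on their own strand. When a transcript was shifted against itself, the strongest match at shifts above 200 bases stood at 234 or 237 bases in every chromosome 9 transcript, against a median of about 31% identity at other shifts. In Gm10722 the match at 234 bases was 65.2%. Gm10800 matched best at 225 bases (56.3%) and Gm10801 at 231 bases (52.8%), and both had lower values at 234 bases, 43.0% and 36.7%. The long noncoding RNA Gm26870, which is not in the set, reached 95.9% at 234 bases in its transcript 202.

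**Figure D1:**
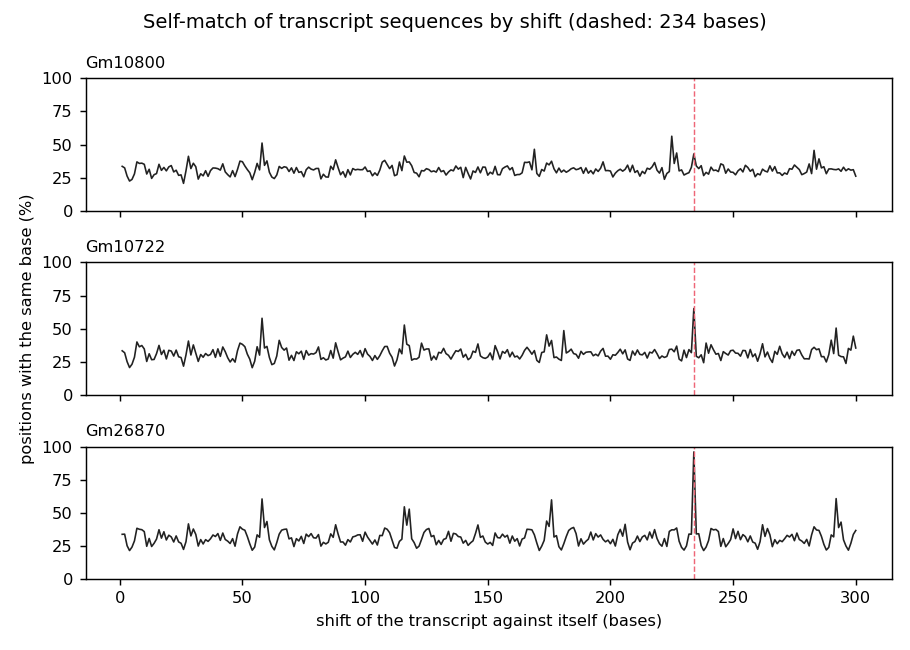
Percentage of positions with the same base when a transcript is shifted against itself, by the shift in bases, for Gm10800, Gm10722 and Gm26870. Peaks in Gm10722 and Gm26870 stand at 234 bases (dashed line), and the highest Gm10800 peak stands at 225 bases with a lower one at 234.

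Of the 10 models, 2 lie side by side on chromosome 2 (Gm10801 at chr2:98662237-98664083, plus strand, and Gm10800 at chr2:98666547-98667301, minus strand). The other 8 lie in a cluster on chromosome 9 between Gm10722 (chr9:3000922-3002330) and Gm10715 (chr9:3036877-3038316), all on the plus strand. All 10 are annotated as protein coding with coding exons only and no untranslated part, from 504 bases (Gm10801) to 3856 bases (Gm10717). Gm26870 (chr9:3000282-3038313) runs through the chromosome 9 cluster on the opposite strand, and its exons cover 0% to 41.1% of the exon bases of the 8 models. Reads were counted without regard to strand, so reads in the shared exon bases could be given to neither gene, and sense and antisense RNA could not be told apart anywhere in the set.

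**Figure D2:**
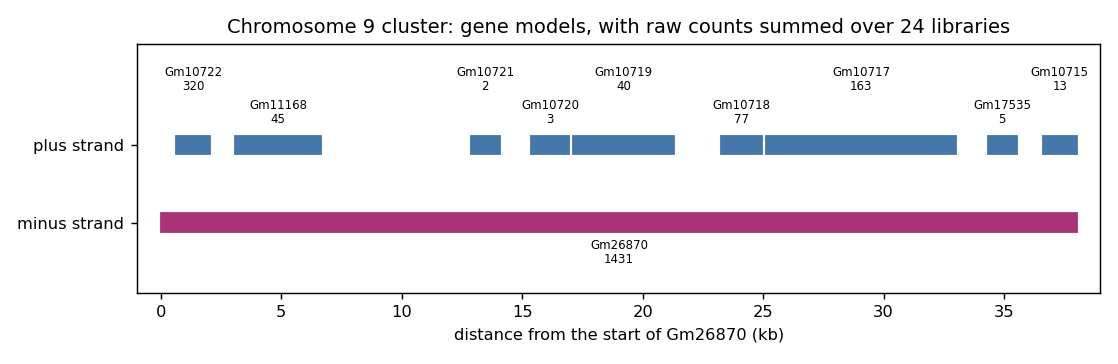
Positions of the chromosome 9 gene models, in kb from the start of Gm26870, by strand, with raw counts summed over 24 libraries. Counts fall unevenly over models of alike sequence, from 320 in Gm10722 and 163 in Gm10717 to 2 in Gm10721.

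Only reads with a single place in the genome were counted, so reads from the parts of a model that are not distinct are lost. The part of this in the differences between models was not tested. No 100-base window of Gm10800 or Gm10801 occurred in a transcript of any other gene, while 19.7% (Gm10722) to 63.2% (Gm10720) of the windows of the chromosome 9 models did. With 31-base windows the share was 36.2% to 41.99% on chromosome 2 and 55.3% to 94.4% on chromosome 9. Windows were compared with annotated transcripts only, and satellite copies outside genes were not analysed here. The counts of each model are therefore uncertain as to the copy they came from, and they cover whatever part of the repeat RNA could be placed.

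Counts on genes ranged from 15800187 (WTSH 4) to 71907130 (WTEE 13) per library. The markers of hippocampal neurons were all over 3 counts in every library, and their summed level lay between 1057 and 1359 CPM in the 21 libraries. Rps6ka5 was detected in every library, from 13.5 to 24.5 CPM. Its log2 fold change in WTEE against KDEE was −0.13 ± 0.09 (SE), and because the mutation changes a single residue this level does not check the genotype. Lanes and preparation batches were not given in the sources used here.

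The satellite level was taken as the summed counts of the 10 models, in CPM (counts scaled to a common library total, with TMM factors over all 24 libraries). It spanned more than 3 orders of magnitude between mice of a single age and tissue, and over the 21 kept libraries the highest was 1903 times the lowest. That lowest library, WTSH 23, held 4 counts over all 10 models, close to the 3 counts that a count of 0 allows, so the ratio is imprecise. The 6 WTEE libraries ran from 10.4 CPM (mouse 11) through a median of 22.8 to 155 CPM (mouse 21). The 6 KDEE libraries ran from 0.124 CPM (mouse 20) through a median of 0.675 to 4.53 CPM (mouse 12). Every WTEE library thus lay above every KDEE library. Of all 20187 genes tested, 105 (0.52%) had each WTEE library above each KDEE library and 21 (0.104%) had each below. The members were chosen on these values, so nothing is read from their place among those genes.

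The standard-housed groups were spread more widely and overlapped with each other and with both enriched groups. In WTSH the kept libraries held 15.7 (mouse 2), 6.03 (mouse 5), 2.09 (mouse 19) and 0.0809 CPM (mouse 23). In KDSH they held 120 (mouse 1), 20.9 (mouse 3), 20 (mouse 18), 0.332 (mouse 24) and 0.316 CPM (mouse 8). The 5 kept KDSH libraries thus were 3 at or above 20 CPM and 2 at or below 0.332 CPM, and KDSH 6, which the study set aside, lay between them at 7.48 CPM.

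The libraries set aside did not share a satellite level. WTSH 4 held 165.5 CPM, the highest of all 24 libraries, and WTSH 7 held 6.03 CPM. Group membership accounted for 45.8% of the variance of the log2 level over 21 libraries and for 38.5% over 24, so most of the spread lay within groups. In tissue RNA, fewer cells carrying a transcript and less of it per cell cannot be told apart.

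**Figure D3:**
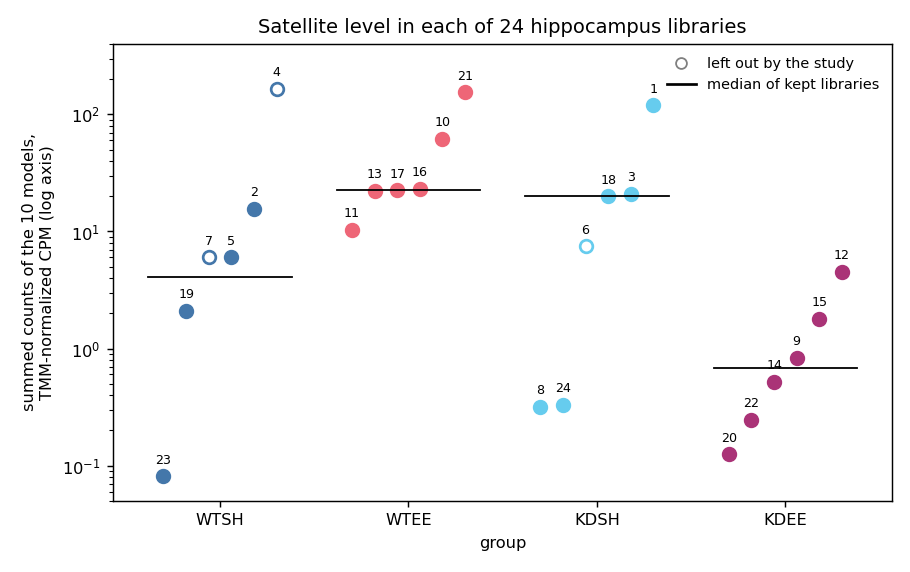
Summed CPM of the 10 models (log axis) in each library by group, with mouse numbers, open circles for the 3 libraries the study left out and lines at the median of the kept libraries. WTEE (10.4 to 155 CPM) lies above KDEE (0.124 to 4.53 CPM) without overlap, and the kept standard-housed libraries run from 0.0809 to 15.7 CPM in WTSH and from 0.316 to 120 CPM in KDSH.

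Gm10800 carried most of the signal, with 90.2% of the 26006 counts of the set, and together with Gm10801 it made up 97.5%. In WTEE its raw counts were 2844, 529, 1480, 1201, 1171 and 6298 in mice 10, 11, 13, 16, 17 and 21. In KDEE they were 38, 170, 23, 75, 3 and 6 in mice 9, 12, 14, 15, 20 and 22. The lowest WTEE library held more than the highest KDEE library, which had fewer counts on genes (41466225 against 56059094).

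In the kept WTSH libraries Gm10800 had 668, 263, 103 and 3 counts in mice 2, 5, 19 and 23, and WTSH 4 and 7 had 1819 and 95. In KDSH it had 4650, 802, 14, 930 and 14 counts in mice 1, 3, 8, 18 and 24, and KDSH 6 had 256. Each standard-housed group therefore held a library with few counts, down to 3 in WTSH and 14 in KDSH, beside others far above it.

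Gm10801 followed the same order at a lower count. It had 50 to 483 counts in WTEE (median 103), 1 to 12 in KDEE (median 3), 1 to 53 in the kept WTSH libraries and 0 to 381 in KDSH, where mice 8 and 24 were at 0. Per kb of coding sequence, over all 24 libraries, Gm10800 held 35540 counts, Gm10801 3746 and Gm10722 492. The remaining 7 models held 2.99 (Gm10721) to 113 (Gm10718) counts per kb.

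Gm10722 was the most counted model on chromosome 9, with 6 to 58 counts in WTEE and 0 to 3 in KDEE. Gm10717 had 4 to 48 counts in WTEE and at most 1 in KDEE. In CPM, 4 of the 10 models (Gm10800, Gm10801, Gm10717 and Gm10722) had each WTEE library above each KDEE library. Of the genes that passed the filter on low counts 0.52% showed this pattern. Only 3 of the 10 models, without Gm10717, were among those genes, so the 2 shares have unlike bases. Gm10718 and Gm11168 reached at most 18 and 10 counts in any library, Gm10719 14 and Gm10715 5. Gm10720 and Gm10721 had 3 and 2 counts in all, which is no more than a count of 0 would allow. Across the 21 libraries the level of a model correlated with the sum of the other 9 at r = 0.977 for Gm10800, 0.969 for Gm10801, 0.957 for Gm10722 and 0.880 for Gm10717, and at 0.343 to 0.754 for the 6 sparse models. The correlations are across models that share sequence and libraries.

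**Figure D4:**
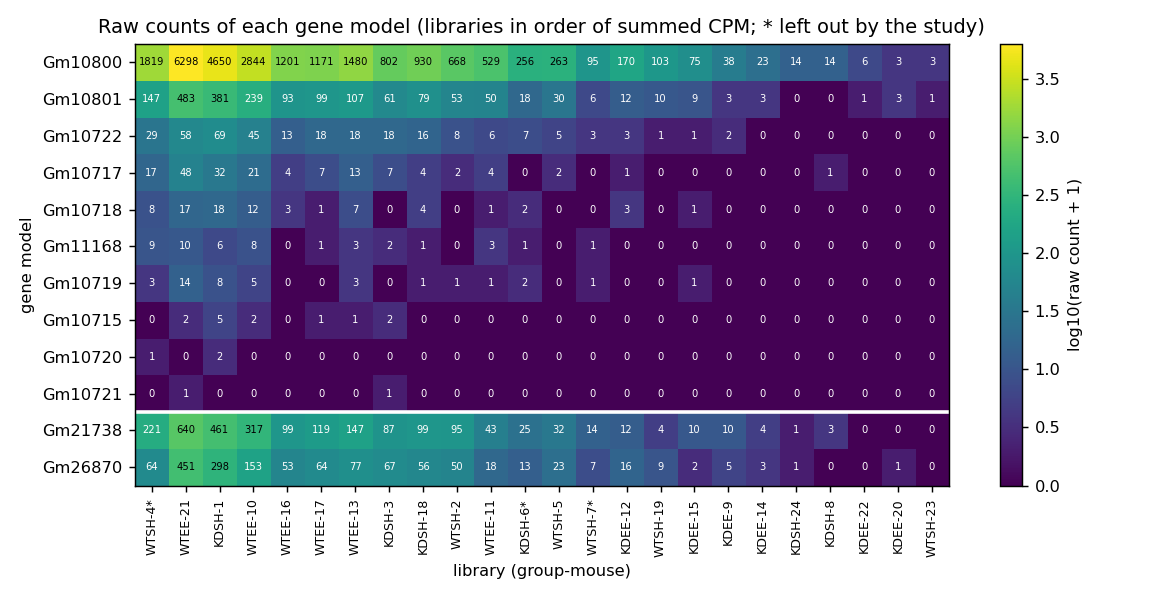
Raw counts of the 10 models, and of Gm21738 and Gm26870 below the white line, in 24 libraries ordered by satellite level (color, log10 of the count plus 1). The columns darken together from left to right, and asterisks mark the 3 libraries the study left out.

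The share of Gm10801 beside Gm10800 was followed across libraries. Of the counts on Gm10800 and Gm10801 together, 7.43% were on Gm10801 when pooled over the 16 libraries with at least 100 such counts. Single libraries gave 5.94% (WTSH 7, exact 95% interval 2.21% to 12.5%) to 10.2% (WTSH 5, 7.02% to 14.3%), and the intervals of all 16 held the pooled value. The share of Gm10722 beside Gm10800 was 1.34% when pooled and ran from 0.913% (WTEE 21) to 3.06% (WTSH 7), and 15 of 16 intervals held the pooled value. That of Gm10717 was 0.691% and ran from 0% (KDSH 6, up to 1.43%) to 0.926% (WTSH 4), and all 16 held it. These intervals cover counting error only, and in the libraries with few counts they are too wide to show that a share was constant.

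The comparison of enriched mice of both genotypes asks how MSK1 kinase activity bears on expression after enrichment. For Gm10800 the log2 fold change in WTEE against KDEE was 5.23 ± 1.22 (SE, n = 6 and 6), for Gm10801 4.89 ± 1.14 and for Gm10722 4.33 ± 1.15. These 3 were the members that passed the filter on low counts, which the high libraries carried them through. None was called by edgeR's quasi-likelihood test (called where the adjusted p fell below 0.05 and the log2 change exceeded 0.38 in size), where 0% of 20187 genes were called, and all 3 members and 1007 genes had an unadjusted p under 0.05. DESeq2 called 3 of 7 members it tested (Gm10800, Gm10801 and Gm10717) and 118 of 26970 genes (0.438%). Because the members were chosen on these values, nothing is read from either count.

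The values for enrichment had opposite signs in the 2 genotypes. In WTEE against WTSH the log2 fold changes were 3.05 ± 1.24 (Gm10800), 2.86 ± 1.10 (Gm10801) and 2.77 ± 1.08 (Gm10722). With all 24 libraries, WTSH 4 and 7 included, the Gm10800 value was 0.70. In KDEE against KDSH they were −4.62 ± 1.22, −4.32 ± 1.17 and −4.23 ± 1.19. No member and 0% of genes were called by edgeR in either contrast, with all 3 members and 1322 and 2345 genes at an unadjusted p under 0.05. DESeq2 called none of 10 members and 2 of 37779 genes (0.00529%) in WT, and none of 2 members and 14 of 16167 genes (0.0866%) in MSK1 KD. Without KDSH 1 the Gm10800 value in KDEE against KDSH was −2.98.

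The difference between the genotypes in the enrichment effect, given by the interaction term, was 7.67 ± 1.78 for Gm10800, 7.18 ± 1.63 for Gm10801 and 7.0 ± 1.61 for Gm10722 on the log2 scale. None was called by edgeR, which called 0% of genes (659 genes and all 3 members at an unadjusted p under 0.05), while DESeq2 called 3 of 7 members and 20 of 26250 genes (0.0762%). KDSH against WTSH, the effect of genotype in standard housing, gave 2.44 ± 1.23 for Gm10800, 2.29 ± 1.12 for Gm10801 and 2.67 ± 1.11 for Gm10722. Here edgeR called 0% of genes and no member (202 genes and 1 member at an unadjusted p under 0.05), and DESeq2 called 0% of 37779 genes (374 genes and 3 of 10 members at an unadjusted p under 0.05). The Gm10800 value was 0.80 without KDSH 1 and −0.11 with all 24 libraries. These contrasts share groups, so their values are not independent of each other.

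Rn18s-rs5 is annotated over 18S ribosomal RNA, which selection for poly(A) tails should largely remove. It took 11.7% of gene counts in WTSH 7, 10.7% in WTSH 4 and 2.94% in KDSH 6, and at most 0.776% in the other libraries. Over the 21 kept libraries its log2 level correlated with the satellite level at r = 0.62 and rho = 0.62, at r = 0.68 without the 2 libraries farthest from its median (KDEE 9 and WTSH 5), and at r = 0.52 after group means were removed. Within WTEE r was 0.30 and within KDEE 0.32 (n = 6 each), and over all 24 libraries r was 0.55. The points share library depth and scaling.

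Single libraries departed far from that relation. WTSH 4 and WTSH 7 had like levels of Rn18s-rs5, 138100 and 155300 CPM, but satellite levels of 165.5 and 6.03 CPM. WTSH 5 had almost the lowest Rn18s-rs5, 113 CPM, with the same satellite level as WTSH 7. KDSH 1 ranked 3 of 24 in satellite level and 12 of 24 in Rn18s-rs5. In WTEE against KDEE, Rn18s-rs5 had a log2 fold change of 1.39 ± 0.89 (SE, adjusted p = 0.957, edgeR), and its interaction value was −0.04 ± 1.34 beside 7.67 for Gm10800.

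**Figure D5:**
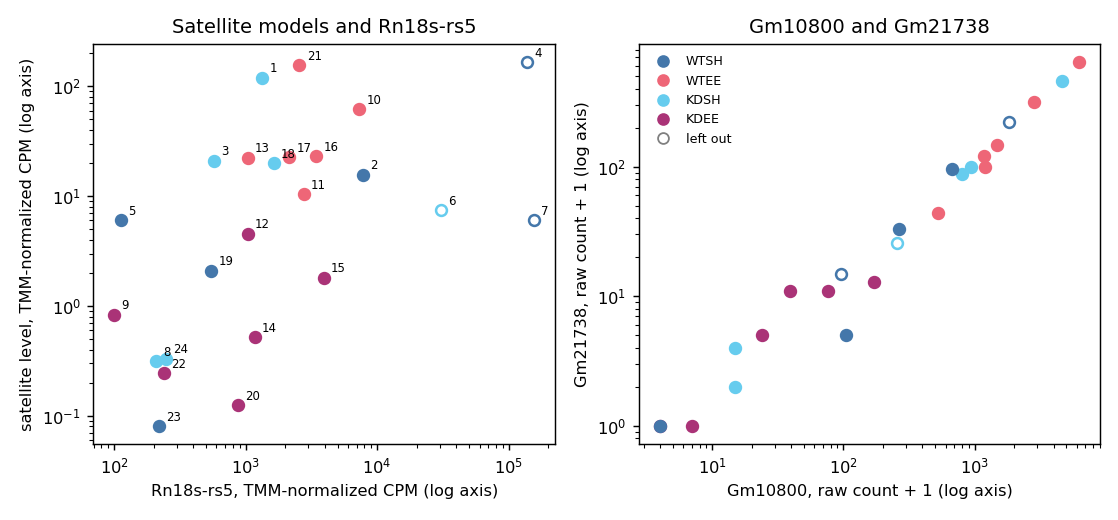
Left, satellite level against Rn18s-rs5 in 24 libraries with mouse numbers (both TMM-normalized CPM, log axes). Right, raw counts plus 1 of Gm21738 against Gm10800 (log axes). Open circles are the 3 libraries the study left out, and on the left mice 4 and 7 of WTSH have like Rn18s-rs5 but satellite levels of 165.5 and 6.03 CPM.

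The other genes of a list of structural RNAs, most of which lack a usual poly(A) tail, gave r = 0.74 when summed (0.67 after group means were removed). The list also held Lars2, so the sum rests partly on a gene annotated as protein coding. Lars2 reached 8176 CPM in the 21 libraries and 69226 CPM over all 24, beside 8304 and 81602 CPM for Gm23935 of the same list. Which RNA the reads on Lars2 came from was not tested. Gm26917, a gene of that list taken singly after its values were seen, gave r = 0.80. Within the 6 WTEE libraries these values were 0.05 and −0.02, and within the 6 KDEE libraries 0.50 and 0.62. Values were lower for summed olfactory receptor genes (0.42), the share of read pairs on no feature (0.46), library size (0.30), genes of the mitochondrial genome (0.29) and the choroid plexus marker Ttr (0.04). All are over 21 libraries. The part of these RNAs in the satellite level was not tested.

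Transcripts related in sequence were sought by a search that used no counts. Among 55341 annotated genes, only 3 outside the set shared any word of 31 bases with it on either strand. These were Gm17535 (93.9% of its words), Gm26870 (91.1% in its transcript 201, the most alike) and Gm21738 (56.2%), a model at chr14:19415857-19418930 that lies far from both clusters. Here every position of a single transcript was counted, while the window shares given earlier count each distinct window once. Gm17535, inside the chromosome 9 cluster, had 5 counts over all libraries. The microRNA gene Mir101c, the only other model within 50 kb, had none.

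The genes most like the satellite level, out of 20184 ranked by r over the 21 libraries, began with those related models. Gm21738 came first (r = 0.983, 0.969 after group means were removed) and Gm26870 second (r = 0.974, 0.961). Gm21738 had 43 to 640 counts in WTEE and 0 to 12 in KDEE, and its log2 fold change was 5.05 ± 1.21 (adjusted p = 0.184, edgeR). Gm26870 had 18 to 451 counts in WTEE and 0 to 16 in KDEE (4.71 ± 1.22, adjusted p = 0.189). Their pooled shares beside Gm10800 were 9.40% and 5.75%, with a range of 3.74% to 12.8% for Gm21738 and 3.29% to 8.6% for Gm26870 over the same 16 libraries. The exact 95% intervals held the pooled value in 12 of 16 libraries for Gm21738 and in 11 of 16 for Gm26870, fewer than for Gm10801, Gm10722 and Gm10717.

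The next 8 were all models of the class TEC, unspliced loci that await experimental evidence: Gm37880, Gm42992, Gm38056, Gm42974, Gm37602, Gm42583, Gm44680 and Gm43670, with r of 0.852 to 0.887. None of the 8 shared a 31-base word with the set. Among the 100 most alike genes 79 were TEC models, which make up 4.08% of genes ranked, and 2 were protein coding, which make up 76.4%. The summed level of all 2486 TEC models gave r = 0.33, and −0.04 after group means were removed.

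Genes that build or read pericentromeric heterochromatin were examined through a list of 35, of which 33 were tested. None was called by edgeR in any of the 5 contrasts, where 0% of all genes tested were called, so this does not set the list apart. In WTEE against KDEE 17 had higher and 16 lower values, with a median of 0.006 on the log2 scale beside −0.001 for all genes. The widest values were 0.36 ± 0.18 for Uhrf1, which guides maintenance of DNA methylation, −0.20 ± 0.18 for Prdm16, 0.20 ± 0.17 for Cenpa, the centromeric histone, and −0.18 ± 0.19 for Dnmt3b, a DNA methyltransferase (adjusted p = 0.957 for each, edgeR). In KDEE against KDSH, where the Gm10800 value was −4.62, 7 heterochromatin genes had higher and 26 lower values, with a median of −0.09 beside 0.002 for all genes. By edgeR 3 of 33 had an unadjusted p under 0.05 there, as did 2345 of all 20187 genes tested. The r of the heterochromatin genes with the satellite level ran from −0.40 to 0.59 with a median of −0.03, and the central 90% of all genes ran from −0.43 to 0.42.

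In the structural RNA list 8 of 18 were tested and none was called by edgeR in any contrast, where 0% of all genes were called. All 8 had higher values in WTEE against KDEE (median 1.39). The widest were in Gm26917 (1.74 ± 0.92), Mir6236 (1.65 ± 0.96), the protein-coding gene Lars2 (1.60 ± 0.91) and Gm23935 (1.4 ± 0.92). In KDEE against KDSH the list did not follow the satellite models, since 4 values were higher and 4 lower (median 0.25) beside −4.62 for Gm10800. In KDSH against WTSH all 8 were lower (median −1.45) while the satellite values were higher.

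The 15 nuclear long noncoding RNAs were all tested and none was called by edgeR in any contrast, where 0% of all genes were called. DESeq2 calls for this list are not given here. The paper, which used DESeq2, names Kcnq1ot1 among the genes higher in enriched WT than in enriched MSK1 KD mice. In WTEE against KDEE the 15 had a median of 0.002, with 9 higher and 6 lower. By edgeR 3 of the 15 had an unadjusted p under 0.05, as did 1007 of all 20187 genes tested. Malat1, which is retained in nuclear speckles, had 1.0 ± 0.23 (adjusted p = 0.184), Kcnq1ot1, an imprinted antisense RNA, 0.73 ± 0.19 (adjusted p = 0.188), Tsix −0.42 ± 0.42 and Mirg 0.25 ± 0.12. In WTEE against WTSH, KDEE against KDSH and KDSH against WTSH, Malat1 had 0.70, −0.42 and 0.12. Kcnq1ot1 had 0.33, −0.52 and 0.12, and both thus had the signs of the satellite models. Of the 15, 5, 3 and 11 were higher and 10, 12 and 4 lower in these contrasts. The summed level of the list, in which Meg3 had the highest median (3635 CPM), had r = −0.10 with the satellite level.

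Markers of tissue that can come with a hippocampal dissection varied between libraries. Summed choroid plexus markers ranged from 27.7 to 9861 CPM (10 of 10 detected, r with the satellite level 0.07), blood markers from 37.0 to 392 CPM (5 of 5, r = 0.20) and pituitary markers from 1.92 to 246 CPM (6 of 6, r = 0.12). The highest values lay in KDEE, WTEE and KDSH, respectively. None of these markers was called by edgeR in any contrast, where 0% of all genes were called.

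The pituitary hormone genes Gh and Prl had values of the same sign as the satellite models in 4 contrasts. For Gh these were 4.32 in WTEE against KDEE, 4.45 in WTEE against WTSH, −6.92 in KDEE against KDSH and 7.05 in KDSH against WTSH on the log2 scale. For Prl they were 5.79, 5.53, −6.31 and 6.05. In the same order Pomc had 1.20, 1.37, −3.95 and 4.12, also of that sign. Tshb had the opposite sign in each (−0.11, −0.20, 0.01 and −0.11), and Lhb had −0.24, 0.63, 0.45 and 0.42. DESeq2 called Gh in KDEE against KDSH (adjusted p = 0.0358) and in the interaction (adjusted p = 0.0206). By library, high Gh and Prl counts went with a high satellite level in some libraries and not in others. WTEE 21 and KDSH 1, ranked 2 and 3 in satellite level, had 453 and 267 counts of Gh and 634 and 21 of Prl. In KDSH 8, KDSH 6 and WTSH 4, Prl had 794, 1444 and 0 counts. Gh had 5897 counts in KDSH 8 and 13738 in KDSH 6, whose satellite levels were 0.316 and 7.48 CPM, and 1 count in WTSH 4, which had the highest satellite level.

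In KDEE against KDSH all 10 choroid plexus markers (median 4.12) and all 5 blood markers (median 1.4) had higher values and an unadjusted p under 0.05, where the satellite values were lower. Of all 20187 genes tested by edgeR, 2345 had an unadjusted p under 0.05 in that contrast. In WTEE against KDEE the choroid plexus markers had a median of −0.31 and the blood markers of 0.39. None had an unadjusted p under 0.05, beside 1007 of all 20187 genes. The part of these tissues in the satellite level was not tested.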

How the data were processed

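Hippocampal RNA was selected for poly(A) and sequenced as paired reads. Per the labels, the authors used FastQC 0.11.3, STAR 2.5 on GRCm38 and HTSeq 0.6.1p1, and deposited raw counts per gene for each library. Only uniquely placed reads were counted, without strand, so reads with several places in the genome are absent. Rows for no feature (8.41% to 33.0% of read pairs) and for more than 1 feature (4.14% to 17.2%) were kept out of library sizes and tests.

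Counts were scaled by TMM and fitted with edgeR 4.0.16 in R 4.3.3 over the 21 libraries in 1 model of 4 groups, with Benjamini-Hochberg adjustment over all genes that passed filterByExpr. Levels are log2 CPM with a prior count of 2. DESeq2 1.42.0, other scalings, filters, priors and library sets were alternatives. The scripts were tested on simulated counts. Positions and sequences came from GENCODE transcripts of GRCm38. Windows of 31 and 100 bases were compared with annotated transcripts, in place of the planned longer genome windows.

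Members and gene lists were chosen with earlier results of these data known. Genes named were the members, Rn18s-rs5, Rps6ka5, models within 50 kb, the 10 most alike genes, called list genes and the 4 widest of each list. Gm26917 was also correlated after its values were seen. Each library is 1 mouse, and p-values measure the spread between mice. The paper kept mice in shared cages, with more mice per enriched cage than per standard cage. The cage of each mouse was not given, so effects of a shared cage and of the group cannot be told apart.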

Additional observations from a re-analysis of the deposited data

Results flagged for a closer look

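In 25 of 46 groups of 4 to 6 libraries compared, 1 library stood apart from the rest by more than Dixon's 95% limit, and each was the highest of its group. The limit marks about 1 in 20 groups only where values are normally distributed, and here it was applied to CPM without logs. The models were also chosen because they vary widely in these libraries, so no chance rate is set against the 25. The gene models share reads and libraries, so these are not 25 separate cases. Values are CPM scaled over the 21 kept libraries.

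WTEE 21 stood above the rest of its group with 144 for Gm10800, 1.1 for Gm10717, 0.32 for Gm10719, 159 for the summed models, 10.3 for Gm26870. KDSH 1 stood above the rest of its group with 111 for Gm10800, 9.11 for Gm10801, 0.765 for Gm10717, 0.43 for Gm10718, 0.191 for Gm10719, 1.65 for Gm10722, 124 for the summed models, 7.12 for Gm26870, 11 for Gm21738. KDEE 12 stood above the rest of its group with 4.16 for Gm10800, 0.392 for Gm26870. WTSH 2 stood above the rest of its group with 7998 for Rn18s-rs5. KDEE 15 stood above the rest of its group with 4040 for Rn18s-rs5. 

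The remaining 7 rested on at most 3 counts: Gm10717 in KDEE 12 (0.0245), Gm10718 in KDEE 12 (0.0734), Gm10719 in WTSH 2 (0.0221), Gm10719 in KDEE 15 (0.0213), Gm10720 in KDSH 1 (0.0478), Gm10721 in WTEE 21 (0.0229), Gm10721 in KDSH 3 (0.0242). They do not exceed the 3 counts that a count of 0 allows.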

How the results depend on the processing

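No satellite model was called by edgeR in any of the 5 contrasts, and this held with RLE size factors, no filter on low counts, a robust fit, all 24 libraries, only the 2 groups compared and each library left out in turn. In each of these fits edgeR called 0 or 1 of all genes per contrast, so the absence of calls is not particular to the members. Asking for 10 or more counts in all libraries left no member to test, so it gave no value. DESeq2 called 3 members in WTEE against KDEE and 3 in the interaction. Chosen after the data were seen, DESeq2 over all 24 libraries called 0 members in every contrast, beside 0 to 22 of all genes. With 1 WTEE or KDEE library left out it called 0 to 3 members in WTEE against KDEE, beside 1 to 187 of all genes. Members called were 0 without WTEE 10, where 1 gene was called, 0 without WTEE 21, where 47 were, and 2 or 3 otherwise. The cause was not tested. In KDSH against WTSH all 24 libraries turned Gm10800 to −0.11, and DESeq2 over 24 turned Gm10800, Gm10801 and Gm10722 to −0.21, −0.21 and −0.12. Leaving out 1 library moved Gm10800 between 4.41 (without WTEE 21) and 6.13 (without KDEE 12) in WTEE against KDEE, with adjusted p of 0.0904 to 0.453. It moved it between 2.23 and 4.20 in WTEE against WTSH, −5.52 and −2.98 in KDEE against KDSH, 0.80 and 3.59 in KDSH against WTSH and 6.03 and 8.81 in the interaction.

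Among correlations with the satellite level, that of TEC models turned to −0.0428 after group means were removed, that of library size to −0.0938 over 24 libraries and −0.0390 after group means were removed, and that of Ttr ranged from −0.0706 to 0.116 with 1 library left out, turning to −0.0317, −0.0110, −0.0706 and −0.0263 without KDSH 8, WTSH 23, WTEE 10 and WTEE 13. No paired analysis was possible because each mouse number belongs to 1 group. Of the 10 models, 3 passed edgeR's filter on low counts, or 5 when any 1 WTSH library was left out, and reads with several places in the genome are missing from all of them.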
